A study of Mus musculus with 43 samples.

Results

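The genes described here encode the parts of the activin and inhibin pathway. There were 10 of them, 3 for ligand subunits (Inhba, Inhbb and Inha), 2 for secreted antagonists (Fst and Fstl3), 3 for receptors (Acvr1b, Acvr2a and Acvr2b) and 2 for signal transducers (Smad2 and Smad3). They were chosen by name, with earlier results of these data known, and every probe set assigned to 1 of them alone in the array's probe-to-gene table was taken, which gave 20 of 45007 probe sets. A probe set shared by Acvr2a and Orc4 was not used. The values of a gene are those of its probe set with the highest mean, as for all 18184 genes on the array, and its other probe sets are given where they differ.

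Activins are dimers of the beta subunits encoded by Inhba and Inhbb. Inhibins join a beta subunit to the alpha subunit encoded by Inha and act against activins, and follistatin (Fst) and the related Fstl3 bind activins and keep them from their receptors. Activins are bound by the type II receptors Acvr2a and Acvr2b, which recruit the type I receptor Acvr1b; Smad2 and Smad3 are then phosphorylated and act with Smad4 on transcription. In the mouse fetal gonad, activin from somatic cells promotes growth of the testis cords, whereas Wnt4 and follistatin of the ovary restrain the formation of testis-type vessels and protect female germ cells.

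Transcripts of whole gonads were measured on 43 arrays, 1 mouse per array by the study's methods, in 15 groups. Testes were taken at embryonic day 13 (E13) and on the day of birth (P0). Ovaries lacking Foxl2, a forkhead factor of the supporting cells, came from E13, E16 and P0, ovaries lacking the signalling protein Wnt4 from E15 and P0, and ovaries with 2 copies of the hypomorphic Kit allele Wv, a receptor mutation under which germ cells are lost, from P0. Wnt4 Foxl2 double null and KitWvWv Foxl2 double mutant ovaries came from P0, and ovaries with 1 Foxl2 allele from E16. The ovaries set against them came from E13, E15, E16 and P0. Each group held 3 arrays, except Wnt4-null and control ovaries of E15 with 2 arrays each. By the labels the E13 controls were Foxl2+/- (wild-type littermates in the study's methods), the E15 controls Wnt4+/-, and the KitWvWv and Wnt4-/- single mutants of P0 Foxl2+/-, so loss of Wnt4 or Kit came with loss of 1 Foxl2 allele. The E16 and P0 ovaries with no mutation in their labels are called wild type. By the study's methods the P0 testes came from Wnt4-null mice, so their difference from wild-type P0 ovaries includes any effect of Wnt4 loss. Sex and Wnt4 loss cannot be told apart in that difference. Wnt4-null ovaries of P0 were not compared with these testes by a test. Those methods also give mixed strain backgrounds that were not the same for E15 as for other stages. All were constitutive mutations, and the dissected gonad holds somatic cells, germ cells and blood vessels together.

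Signals are given as a multiple of the mean of the whole array, which was the same on every array. Differences are log2 values with their standard error, computed after adding 1% of that mean, which understates changes of dim genes; adjusted p-values are from limma over all probe sets, and a gene was called at an adjusted p under 0.05. Counts at an unadjusted p under 0.05 come without a share over all genes, so they cannot be compared with the shares called. Replicate arrays correlated at 0.922 to 0.982 (41 pairs). The targeted genes followed the labels: Foxl2 signals were 0.606 to 1.23 in Foxl2-null ovaries of E13, against 5.31 to 10.1 in their controls, and 1.36 to 2.42 in Foxl2-null ovaries of P0, against 14.6 to 16.8 in wild-type ovaries. Wnt4 signals were 0.200 to 0.306 in Wnt4-null ovaries of P0, against 0.581 to 0.745 in wild-type ovaries. The Kit signal checks nothing, because the allele is hypomorphic, but the summed signal of 4 germ cell markers was 0.182 to 0.992 in KitWvWv ovaries, against 13.4 to 16.4 in wild-type ovaries. KitWvWv array 3 kept oocyte markers, at a sum of 22.2 over 7 genes, against 1.29 and 2.12 on the others.

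Promoters are shown for the 4 genes on which the comparisons below turn and for which the RefSeq table (build GRCm38.p6) holds one. Each sequence runs 5′ to 3′ along the gene's strand, from 250 bases before to 50 bases after the annotated start, and the capitals mark the letters of a searched motif on either strand. Inha lies at chr1:75507359-75507658 on the plus strand, with AGGTCA, the core of sites of NR5A factors such as Sf1, 69 bases before the start. Inhba lies at chr13:16011601-16011900 on the plus strand, with ACAAAG, the core of SOX sites, 228 bases before the start and read here on the opposite strand. Inhbb lies at chr1:119422199-119422498 on the minus strand, with 1 GC box (GGGCGG) 122 bases before the start and on the opposite strand. Smad3 lies at chr9:63757945-63758244 on the minus strand, with GC boxes 234 and 171 bases before the start.
Inha: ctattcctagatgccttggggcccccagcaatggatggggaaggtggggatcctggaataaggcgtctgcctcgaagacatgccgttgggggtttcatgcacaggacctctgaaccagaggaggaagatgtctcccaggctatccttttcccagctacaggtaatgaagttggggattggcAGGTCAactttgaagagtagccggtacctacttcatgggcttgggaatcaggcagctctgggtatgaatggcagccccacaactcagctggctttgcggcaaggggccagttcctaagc
Inhba: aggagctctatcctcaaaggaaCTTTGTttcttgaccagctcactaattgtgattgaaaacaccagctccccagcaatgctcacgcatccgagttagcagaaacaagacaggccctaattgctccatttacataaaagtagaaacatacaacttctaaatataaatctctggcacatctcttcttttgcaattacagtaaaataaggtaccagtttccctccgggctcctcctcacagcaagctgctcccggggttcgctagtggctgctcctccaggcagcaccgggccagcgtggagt
Inhbb: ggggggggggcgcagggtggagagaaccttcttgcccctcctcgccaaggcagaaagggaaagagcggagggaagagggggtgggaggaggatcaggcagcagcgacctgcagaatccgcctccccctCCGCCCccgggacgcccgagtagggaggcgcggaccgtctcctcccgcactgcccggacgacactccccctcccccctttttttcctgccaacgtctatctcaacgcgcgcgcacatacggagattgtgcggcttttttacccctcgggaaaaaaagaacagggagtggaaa
Smad3: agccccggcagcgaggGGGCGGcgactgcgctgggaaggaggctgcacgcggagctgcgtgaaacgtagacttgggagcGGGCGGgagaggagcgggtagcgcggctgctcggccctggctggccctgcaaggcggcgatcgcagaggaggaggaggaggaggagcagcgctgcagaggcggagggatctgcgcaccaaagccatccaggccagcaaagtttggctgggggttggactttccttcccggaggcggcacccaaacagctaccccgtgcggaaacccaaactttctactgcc

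Of the 8 promoters of these genes that were searched, those of Fst and Smad2 not among them, 0 held the forkhead letters TGTTTAC. These letters were in 3.65% of all 32851 promoters. The TCF/LEF letters CTTTGAT were in 0 of 8 (3.73% of all promoters) and the palindrome GTCTAGAC bound by Smads in 0 of 8 (0.213%). The SOX letters were in 3 of 8, those of Inhba, Fstl3 and Acvr2b, against 18.7% of all promoters. The NR5A letters were in 2 of 8, those of Inha and Fstl3 (16.3%), where in Fstl3 they overlap the SOX letters, and the GC box in 6 of 8, all but those of Inha and Inhba (35.7%). A match describes letters in a window of 300 bases and is not a binding site.

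The genes differed widely in how far their level moved between groups. The group means of Fst ran from 0.0346 in E13 testes, too dim for an exact fold without detection calls, to 3.08 in KitWvWv ovaries. The highest and lowest group means of Inhba differed 36.3-fold, those of Inha 12.8-fold, of Inhbb 7.82-fold and of Smad3 3.58-fold. Fstl3 spanned 3.09-fold, Smad2 2.55-fold, Acvr1b 2.43-fold, Acvr2b 2.31-fold and Acvr2a 1.88-fold. Ligand subunits and follistatin thus covered wider ranges than the receptors, whose group means stayed between 0.281 and 0.684 for Acvr1b, between 1.42 and 2.67 for Acvr2a and between 1.08 and 2.49 for Acvr2b.

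**Figure D1:**
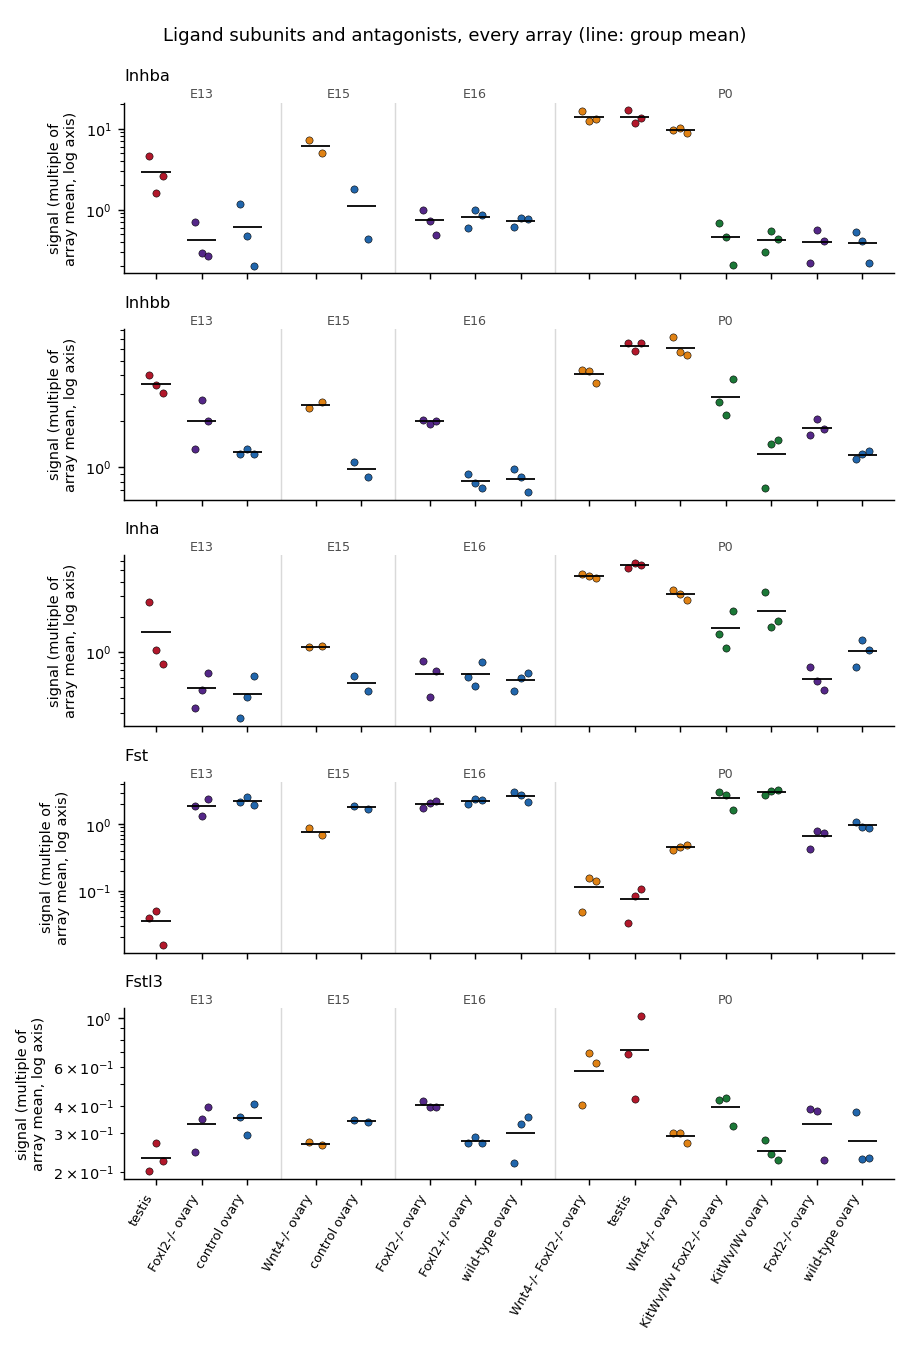
Signal of the 3 ligand subunit genes and 2 antagonist genes (multiples of the array mean, log axis) on each array of the 15 groups; points are arrays and lines group means. Inhba lies above 8 in all 9 gonads of P0 that lack Wnt4, the P0 testes among them, and below 0.7 in all 12 P0 ovaries that keep it.

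The first question was how the genes differ between testis and ovary. At E13 all 3 ligand subunit genes were higher in the testis and Fst was much lower, and at P0 the same 4 genes were called again, with Smad3 and Acvr2b lower and Fstl3 higher in the testis. At E13 4 of 10 genes rose and 1 fell, while 8.14% of all genes were called, 3.3% higher and 4.84% lower in the testis. At P0 4 rose and 3 fell, while 28.9% of all genes were called, 12.2% higher and 16.7% lower. The median log2 difference of the 10 genes was 0.25 at E13 and 0.15 at P0, against -0.04 and 0.07 over all genes.

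Inhba, the beta A subunit, had signals of 4.64, 1.60 and 2.58 in E13 testes, against 1.18, 0.465 and 0.203 in E13 ovaries. The groups did not overlap, nor did they for 28.2% of all genes, and each varied more than 2-fold within itself. The log2 difference was 2.44 ± 0.48 (adjusted p = 0.000639). At P0 Inhba stood at 16.8, 11.7 and 13.4 in testes, against 0.523, 0.414 and 0.217 in ovaries. Every P0 testis was more than 20-fold above every P0 ovary. The P0 difference exceeded that of E13 by 2.77 ± 0.68 on the log2 scale (adjusted p = 0.00827 for the change), and 4 of 10 genes were called for such a change (8.83% of all genes), Inhba, Fst, Fstl3 and Smad3. The P0 testes lacked Wnt4 and the E13 ovaries were labelled Foxl2+/-, so stage cannot be told apart from these in any such change. The second Inhba probe set was very dim, with a mean of 0.0175 over all arrays, and says little about level.

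Inhbb, the beta B subunit, gave 4.0, 3.47 and 3.08 in E13 testes, against 1.21, 1.31 and 1.21 in E13 ovaries. The arrays of each group lay close together and the groups were well apart (log2 difference 1.48 ± 0.21, adjusted p = 4.788e-06). At P0 the signals were 6.51, 5.77 and 6.51 in testes, against 1.13, 1.21 and 1.26 in ovaries, a difference of 2.37 ± 0.21 (adjusted p = 1.411e-10). The ovary signals of P0 were in the same range as those of E13, while each P0 testis was above each E13 testis. The change of the difference with stage was 0.89, just outside the threshold (adjusted p = 0.0705), and was called with quantile normalization (0.0339), with only probe sets above the median signal (0.0494) and with the spread of these arrays alone (0.0154).

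Inha, the alpha subunit that turns a beta subunit into inhibin, was 2.66, 1.03 and 0.783 in E13 testes, against 0.268, 0.409 and 0.617 in E13 ovaries. Testis array 1 stood apart from the others, and the difference of 1.64 ± 0.33 (adjusted p = 0.000978) was not called when the spread was taken from these 6 arrays alone (adjusted p = 0.0812). At P0 the testes gave 5.23, 5.77 and 5.59, against 0.745, 1.25 and 1.05 in ovaries, with a difference of 2.47 ± 0.33 (adjusted p = 5.664e-07). Here neither group was scattered, and the lowest testis was more than 4-fold above the highest ovary.

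Fst, the follistatin gene and the main extracellular brake on activin, was far below the median of all probe sets (0.256) in testes. It had signals of 0.0391, 0.0493 and 0.0154 in E13 testes, against 2.18, 2.61 and 1.98 in E13 ovaries (log2 difference -5.75 ± 0.33, adjusted p = 8.434e-16). At P0 it stood at 0.0330, 0.0833 and 0.106 in testes, against 1.08, 0.920 and 0.895 in ovaries (-3.65 ± 0.33, adjusted p = 1.186e-10). Testis and ovary arrays were far apart at both stages, and the gap was narrower at P0, by 2.10 ± 0.46 (adjusted p = 0.003045 for the change). Testis signals this dim depend on the amount added before the log, and the P0 difference of the second Fst probe set was smaller, -2.31 ± 0.35. Fstl3, a follistatin relative, moved the other way at P0, with 0.689, 0.427 and 1.03 in testes, against 0.373, 0.227 and 0.230 in ovaries (1.29 ± 0.26, adjusted p = 0.0002467). At E13 it gave 0.201, 0.269 and 0.223 in testes, against 0.355, 0.295 and 0.405 in ovaries, which was not called (-0.59 ± 0.26, adjusted p = 0.208), so that the testis lay below the ovary at E13 and above it at P0 (change 1.87 ± 0.36, adjusted p = 0.0008447).

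Smad3, which carries the activin signal to the nucleus, was 2.49, 2.75 and 2.44 in P0 testes, against 8.33, 8.45 and 10.7 in P0 ovaries. The difference of -1.83 ± 0.12 (adjusted p = 1.368e-13), 3.55-fold lower in the testis, was matched by -2.10 and -2.08 on its other probe sets. At E13 the signals were 3.42, 3.23 and 3.04 in testes, against 3.90, 3.97 and 3.65 in ovaries, a difference of -0.25 ± 0.12 that was not called (adjusted p = 0.284). The change between stages was -1.58 ± 0.17 (adjusted p = 1.282e-07).

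Among the receptors, Acvr2b gave 1.54, 0.751 and 1.17 in P0 testes, against 1.60, 1.92 and 1.93 in P0 ovaries (-0.71 ± 0.18, adjusted p = 0.003325). Testis array 2 was the lowest, and without it the difference was not called (-0.43, adjusted p = 0.0780). Smad2, the other transducer, was 2.12, 2.55 and 2.99 in E13 testes, against 1.32, 1.77 and 1.58 in E13 ovaries (0.71 ± 0.22, adjusted p = 0.0439). That call was lost without testis array 2 or 3 or without ovary array 1 or 3 (adjusted p = 0.106 to 0.228), and the second Smad2 probe set differed by only 0.08 ± 0.15. Acvr1b and Acvr2a were called at neither stage on their brightest probe sets. Wnt4-null ovaries of P0 lack Wnt4 as the P0 testes do, but were labelled Foxl2+/-. Group means in P0 testes and in those ovaries were 6.26 and 6.11 for Inhbb, 1.15 and 1.08 for Acvr2b and 2.56 and 3.07 for Smad3. They were 14.0 and 9.54 for Inhba, 5.53 and 3.10 for Inha, 0.714 and 0.289 for Fstl3 and 0.0741 and 0.455 for Fst. The difference between these groups was not tested.

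Cell types moved with these differences. The summed signal of 6 Sertoli cell markers was 22.9 to 32.9 in P0 testes, against 1.56 to 2.13 in P0 ovaries, and 20.7 to 28.3 in E13 testes, against 2.71 to 4.87 in E13 ovaries; 4 of 6 rose at E13 and 5 of 6 at P0. Of 4 measured fetal Leydig cell markers, 4 rose at both stages, with sums of 26.8 to 88.3 in E13 testes, against 0.745 to 1.06 in E13 ovaries. The 7 oocyte markers all fell at P0, to sums of 0.965 to 1.58 in testes, against 25.5 to 48.2 in ovaries. All 5 supporting cell markers of the fetal ovary, which include Foxl2 and Wnt4, fell at both stages, with sums of 1.93 to 2.36 in E13 testes, against 20.7 to 28.0 in E13 ovaries, and 1.28 to 2.03 in P0 testes, against 28.6 to 32.3 in P0 ovaries. The part of these cells in the differences of the 10 genes was not tested, and in whole gonads fewer cells of a type and less RNA per cell cannot be told apart.

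Other genes of the TGF-beta and activin pathway were looked at as a list of 43, of which 41 were measured. In E13 testes 8 of 41 rose and 0 fell (8.14% of all genes were called), with a median of 0.24 against -0.04 over all genes. The leading genes were Lefty1 (5.39 ± 0.33) and Lefty2 (4.17 ± 0.35), which inhibit Nodal, Tdgf1 (5.02 ± 0.37), a Nodal coreceptor, and Nodal itself (1.73 ± 0.37). At P0 9 of 41 rose and 3 fell, a share close to the 28.9% called among all genes. They included Wfikkn2 (1.61 ± 0.28), which binds growth factors of this family, and Tgfb3 (-0.91 ± 0.21), a TGF-beta ligand.

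**Figure D2:**
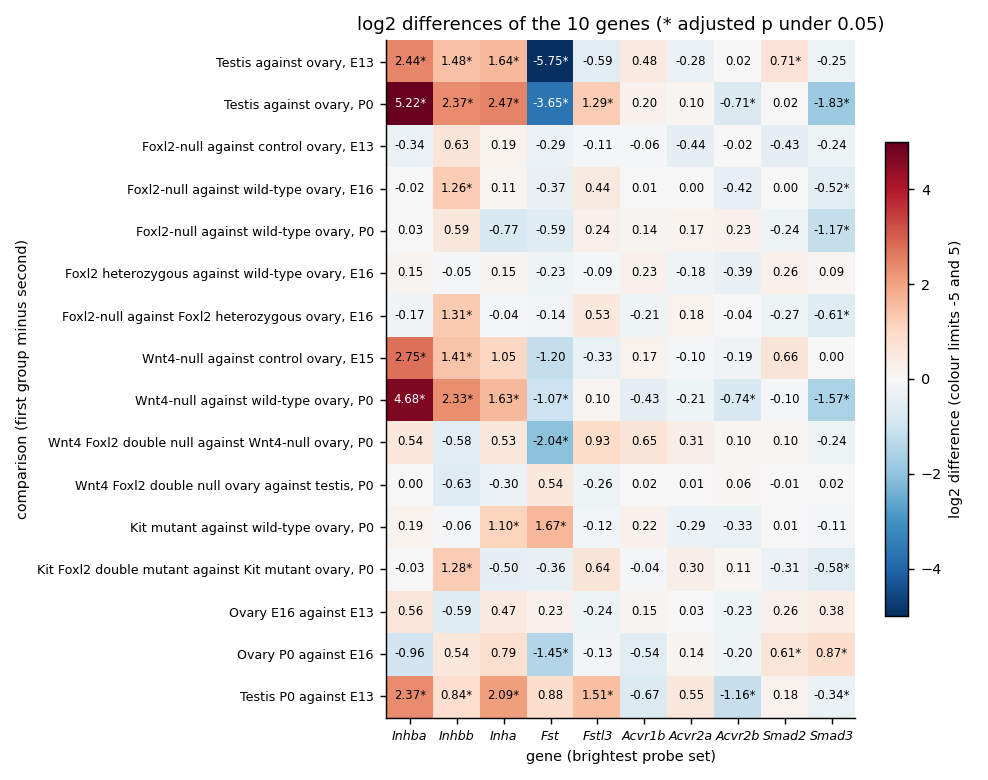
Log2 difference of the 10 genes (columns) in 16 comparisons (rows), first-named group minus second, with calls at an adjusted p under 0.05 marked. The ligand subunit genes are positive in the rows that set testis or Wnt4-null ovaries against ovaries, and Smad3 is negative in the P0 rows for testis, Wnt4 loss and Foxl2 loss.

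The next question was what happens to the genes in ovaries that lack Wnt4. At P0 all 3 ligand subunit genes rose and Fst, Acvr2b and Smad3 fell in Wnt4-null ovaries, 6 of 10 genes in all, while 16.9% of all genes were called, 7.07% higher and 9.87% lower. At E15 Inhba and Inhbb rose and 0 genes fell (2.1% called). At an unadjusted p under 0.05 there were 5 of 10, a count with no share over all genes to set beside it.

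Inhba was 9.70, 10.1 and 8.76 in Wnt4-null ovaries of P0, against 0.523, 0.414 and 0.217 in wild-type ovaries. This is a 25.6-fold difference (log2 4.68 ± 0.48, adjusted p = 1.048e-08), and no array of either group came near the other. At E15 the Wnt4-null signals were 7.26 and 5.02, against 1.80 and 0.435 in controls (2.75 ± 0.59, adjusted p = 0.007224). The control arrays differed 4-fold from each other, and the E15 call was lost without control array 2 (1.74, adjusted p = 0.319) and without Wnt4-null array 1 (2.49, adjusted p = 0.138). Across all P0 gonads, Inhba spanned 8.76 to 16.8 in the 9 without Wnt4, against 0.209 to 0.682 in the 12 ovaries with Wnt4. The 9 include the P0 testes, and no P0 testis with Wnt4 was measured, so sex and Wnt4 loss are mixed in this split. E13 testes, for which no Wnt4 loss is given, had 1.60 to 4.64, against 0.203 to 1.18 in E13 ovaries.

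Inhbb was 7.20, 5.67 and 5.46 in Wnt4-null ovaries of P0, against 1.13, 1.21 and 1.26 in wild-type ovaries (2.33 ± 0.21, adjusted p = 9.185e-10). At E15 it was 2.45 and 2.67 in Wnt4-null ovaries, against 1.07 and 0.858 in controls (1.41 ± 0.26, adjusted p = 0.001744), and this call was lost without control array 2 (adjusted p = 0.0561). The groups did not overlap at either stage. They also did not overlap for 33.7% of all genes at P0 and, with 2 arrays against 2, for 44.5% at E15. Inha reached 3.37, 3.15 and 2.79 in Wnt4-null ovaries of P0, against 0.745, 1.25 and 1.05 in wild-type ovaries (1.63 ± 0.33, adjusted p = 0.0006257), and at E15 1.10 and 1.12, against 0.613 and 0.460, which was not called (1.05 ± 0.41, adjusted p = 0.234).

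Fst was lower without Wnt4 by a smaller margin than between testis and ovary. Its signals were 0.416, 0.455 and 0.494 in Wnt4-null ovaries of P0, against 1.08, 0.920 and 0.895 in wild-type ovaries. The groups did not overlap (-1.07 ± 0.33, adjusted p = 0.0238), nor did they for 33.7% of all genes. The call was lost without Wnt4-null array 1 or 2 or without wild-type array 1 or 2 (adjusted p = 0.0598 to 0.0905). At E15 the signals were 0.876 and 0.682 in Wnt4-null ovaries, against 1.87 and 1.72 in controls, which was not called (-1.20 ± 0.40, adjusted p = 0.129) except with a pseudocount of 5% (-1.16, adjusted p = 0.0443).

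Smad3 was 2.61, 3.24 and 3.35 in Wnt4-null ovaries of P0, against 8.33, 8.45 and 10.7 in wild-type ovaries (-1.57 ± 0.12, adjusted p = 4.274e-11), with -1.89 and -2.09 on its other probe sets. At E15 it was 3.89 and 3.92, against 3.99 and 3.84 in controls, and the interval of the difference ran from -0.31 to 0.30. No difference was thus detected at E15, and Smad3 was 2.98-fold lower in the null at P0. The change between these stages was not tested. The E15 controls were labelled Wnt4+/- and the P0 nulls Foxl2+/-, and strain backgrounds differed, so stage cannot be told apart from these. Acvr2b gave 1.10, 1.04 and 1.10 in Wnt4-null ovaries of P0, against 1.60, 1.92 and 1.93 in wild-type ovaries (-0.74 ± 0.18, adjusted p = 0.003704).

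Markers of several cell types moved with Wnt4 loss as well. Fetal Leydig cell markers summed to 8.86 to 18.4 in Wnt4-null ovaries of P0, against 2.38 to 3.21 in wild-type ovaries, and 3 of 4 rose. Adrenal cortex markers summed to 2.72 to 6.12, against 0.0763 to 0.212, and 2 of 3 rose. Oocyte markers summed to 3.59 to 9.88, against 25.5 to 48.2, and 6 of 7 fell; Sertoli cell markers summed to 5.45 to 6.78, against 1.56 to 2.13. Supporting cell markers summed to 11.6 to 14.5, against 28.6 to 32.3, and 4 of 5 fell. That list includes the deleted Wnt4, and Foxl2, of which 1 allele was left by the labels, so its sum does not reflect cells alone. Germ cell markers summed to 2.72 to 5.43, against 13.4 to 16.4, and 2 of 4 fell. Endothelial cell markers summed to 8.71 to 9.25, against 4.10 to 5.64, and 1 of 5 rose. Macrophage markers summed to 3.03 to 3.57, against 1.67 to 2.96, and 0 of 5 were called. At E15 supporting cell markers summed to 20.2 to 21.1 in Wnt4-null ovaries, against 32.0 to 32.6 in controls, with Wnt4 itself the only one called, fetal Leydig cell markers to 2.74 to 4.57, against 1.29 to 2.29, and macrophage markers to 2.58 to 2.88, against 1.36 to 1.52. Control array 2, without which both E15 calls were lost, had an erythroid sum of 11.4, against 2.0 on control array 1. The part of these cells in the changes of the 10 genes was not tested. Of the 41 other pathway genes, 10 rose and 1 fell at P0 (16.9% of all genes were called), with a median of 0.22 against -0.03 over all genes, led by Wfikkn2 (1.85 ± 0.28), Ltbp1 (1.38 ± 0.21), which stores latent TGF-beta in the matrix, Tgfbr3 (1.11 ± 0.20), the betaglycan coreceptor through which inhibin acts, and Pmepa1 (1.21 ± 0.23), a Smad target that dampens the pathway. At E15 3 rose and 0 fell, Pmepa1 (1.60 ± 0.28), Tgfbr3 (0.93 ± 0.24) and Skil (1.11 ± 0.29), a Smad corepressor.

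Foxl2 was lost in addition to Wnt4 in the double null ovaries of P0. Against Wnt4-null ovaries, Fst fell further and was the only gene of the 10 called (0.924% of all genes). At an unadjusted p under 0.05 there were 4 of 10, again with no share over all genes to set beside it. Fst was 0.0475, 0.155 and 0.141 in double null ovaries, against 0.416, 0.455 and 0.494 in Wnt4-null ovaries (-2.04 ± 0.33, adjusted p = 0.000268), and -1.82 on its second probe set. Every double null array was thus at most 0.155, and their range overlapped that of the P0 testes.

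Inhba was 16.4, 12.3 and 13.1 in double null ovaries, against 9.70, 10.1 and 8.76 in Wnt4-null ovaries, a difference that was not called (0.54 ± 0.48, adjusted p = 0.787). Inhbb was 4.36, 4.26 and 3.56, against 7.20, 5.67 and 5.46 in Wnt4-null ovaries (-0.58 ± 0.21, adjusted p = 0.305). The arrays did not overlap, nor did they for 17.9% of all genes, and the difference was not called. Fstl3 was 0.404, 0.695 and 0.624, against 0.299, 0.299 and 0.271 (0.93 ± 0.26, adjusted p = 0.0905). Sertoli cell markers rose further, to sums of 17.6 to 18.4 in double null ovaries, against 5.45 to 6.78 in Wnt4-null ovaries, and 4 of 6 were called. Supporting cell markers fell further, to sums of 3.07 to 6.87 in double null ovaries, against 11.6 to 14.5 in Wnt4-null ovaries, and 2 of 5 were called, Runx1 and the deleted Foxl2. The part of these cells in the fall of Fst was not tested.

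Set against P0 testes, double null ovaries had 0 of 10 genes called (2.2% of all genes), with 1 at an unadjusted p under 0.05, Inhbb (-0.63 ± 0.21, adjusted p = 0.134). Inhba differed by 0.00 ± 0.48, with an interval from -0.97 to 0.98, and Smad3 by 0.02 ± 0.12, with an interval from -0.23 to 0.27. The interval of Inhba is wide and leaves room for differences of almost 2-fold either way, whereas that of Smad3 is narrow. Fst differed by 0.54 ± 0.33 on its brightest probe set and by -0.52 on the other. Of the 41 other pathway genes, 0 were called in either comparison of the double null ovaries, with 5 at an unadjusted p under 0.05 against Wnt4-null ovaries and 11 against testes.

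**Figure D3:**
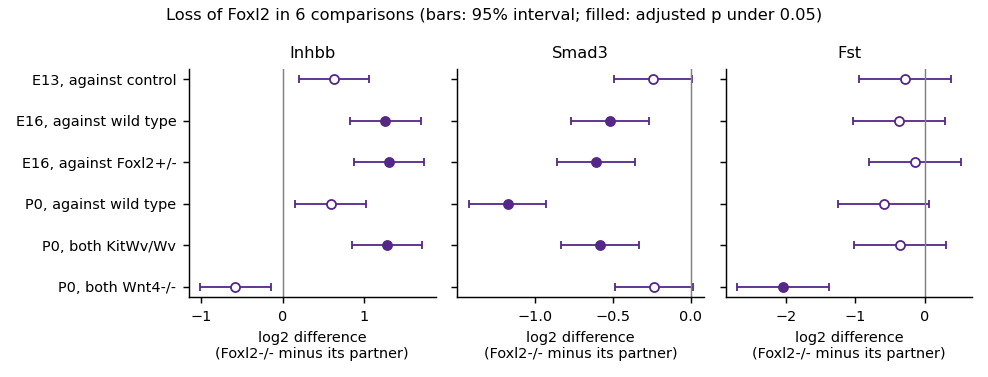
Log2 difference with its 95% interval for Inhbb, Smad3 and Fst on loss of Foxl2 in 6 comparisons, E13, E16 and P0 alone, E16 against heterozygous ovaries, and at P0 on a Wnt4-null and on a Kit mutant background. Inhbb is above 0 and Smad3 below 0 everywhere except that Inhbb is below 0 on the Wnt4-null background.

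The effect of losing Foxl2 alone fell on Inhbb and Smad3. Of the 10 genes, 0 were called at E13 (1.4% of all genes were called; 1 at an unadjusted p under 0.05), 1 rose and 1 fell at E16 (0.66%), and 1 fell at P0 (0.825%). On the average over the 3 stages 1 rose and 1 fell (1.86%), and Smad3 averaged -0.65 ± 0.07 (adjusted p = 1.982e-07). Comparisons of the same stage share control arrays where they name the same controls, as do all P0 comparisons with wild-type ovaries.

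Inhbb was 2.03, 1.93 and 2.01 in Foxl2-null ovaries of E16, 0.895, 0.783 and 0.726 in ovaries with 1 Foxl2 allele and 0.964, 0.851 and 0.682 in wild-type ovaries. The 3 null arrays lay close together and well above all 6 others. The null differed from the heterozygote by 1.31 ± 0.21 (adjusted p = 0.001962), a comparison in which 1 of 10 rose and 1 fell (0.132% of all genes were called). The heterozygote differed from the wild type by -0.05 ± 0.21, with 0 of 10 genes called (0.0055%) and 1 at an unadjusted p under 0.05. The second Inhbb probe set gave 1.55 against the wild type (adjusted p = 0.0466) and 1.99 against the heterozygote.

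At E13 Inhbb was 1.31, 2.74 and 2.0 in Foxl2-null ovaries, against 1.21, 1.31 and 1.21 in controls. Null array 1 fell at the level of the highest control, and the difference was not called with it (0.63 ± 0.21, adjusted p = 0.103) but was without it (0.90, adjusted p = 0.0258). That array also had the lowest sums of supporting cell markers, which include Foxl2 (9.29, against 17.3 and 21.9 on arrays 2 and 3), and of meiosis markers (2.60, against 21.9 and 7.86). Control sums were 20.7 to 28.0 and 8.05 to 28.4. The part of these cells in the E13 values was not tested. At P0 Inhbb was 1.63, 2.05 and 1.77 in Foxl2-null ovaries, against 1.13, 1.21 and 1.26 in wild-type ovaries. The groups did not overlap, nor did they for 12.5% of all genes, and the difference was not called (0.59 ± 0.21, adjusted p = 0.360).

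Smad3 was 4.29, 4.07 and 3.74 in Foxl2-null ovaries of P0, against 8.33, 8.45 and 10.7 in wild-type ovaries. The null arrays were all well below the wild type, 2.26-fold lower on the scale used (-1.17 ± 0.12, adjusted p = 1.822e-07), and both other probe sets fell by 1.31 and were called. At E16 it was 3.99, 3.14 and 3.36 in null, 5.63, 5.19 and 5.10 in heterozygous and 4.43, 5.48 and 5.10 in wild-type ovaries, with the null below all others. Arrays also did not overlap for 16.5% of all genes against the wild type and for 12.4% against the heterozygote. The E16 differences of -0.52 ± 0.12 from wild type (adjusted p = 0.0430) and -0.61 ± 0.12 from the heterozygote (adjusted p = 0.0290) were less firm. The first was lost without null array 2 or 3 or wild-type array 2 or 3 (adjusted p = 0.210 to 0.311), and the second without null array 2 or 3 or any 1 heterozygous array (0.103 to 0.244). Neither was called with the spread of the arrays compared alone (adjusted p = 0.107 and 0.106). At E13 it was 3.05, 2.81 and 3.96 in Foxl2-null ovaries, against 3.90, 3.97 and 3.65 in controls (-0.24 ± 0.12, adjusted p = 0.285). The effect at P0 exceeded that at E13 by -0.93 ± 0.17 (adjusted p = 0.008579), which was not called with the spread of these 12 arrays alone (adjusted p = 0.322). Smad3 was the only one of the 10 genes called for this change (0.324% of all genes). The E13 controls were labelled Foxl2+/- and the labels of the P0 controls give no mutation, so stage and Foxl2 dose of the controls cannot be told apart in it.

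**Figure D4:**
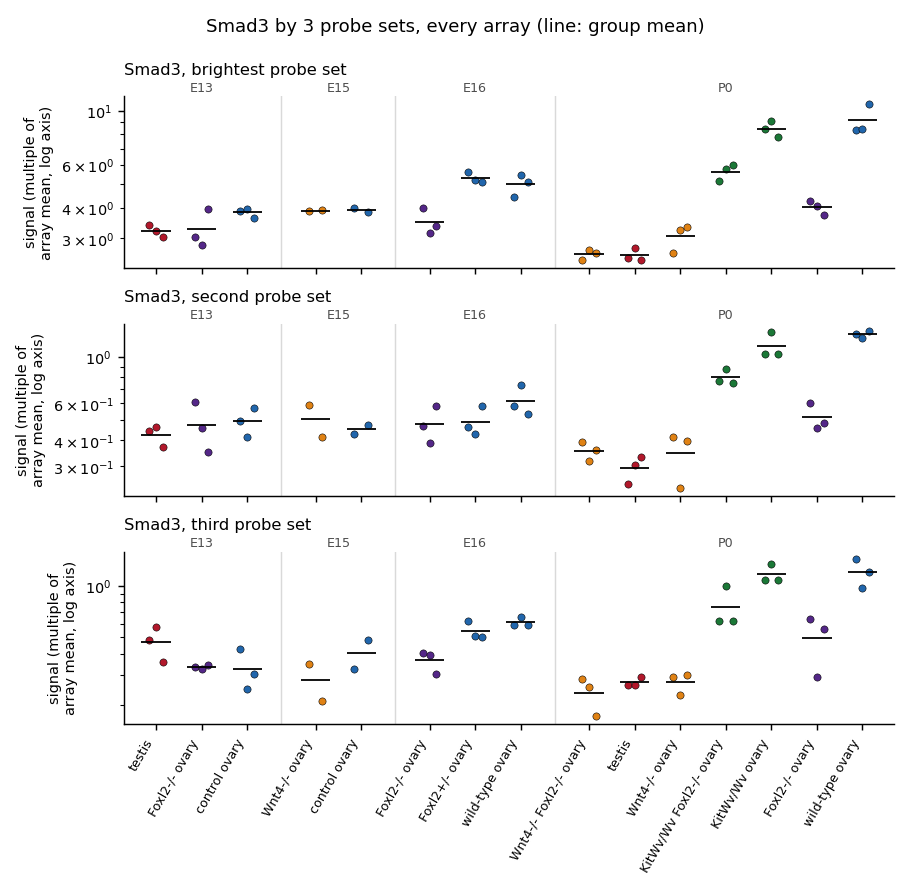
Signal of the 3 Smad3 probe sets (multiples of the array mean, log axis) on each array of the 15 groups; points are arrays and lines group means. On the brightest probe set P0 wild-type and KitWvWv ovaries lie between 7.83 and 10.7. The 9 P0 gonads without Wnt4, the P0 testes among them, lie between 2.44 and 3.35.

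No other gene of the 10 was called on loss of Foxl2 alone. Fst was 1.79, 2.12 and 2.24 in Foxl2-null ovaries of E16, against 3.09, 2.76 and 2.15 in wild-type ovaries, and 0.425, 0.808 and 0.739 in Foxl2-null ovaries of P0, against 1.08, 0.920 and 0.895 in wild-type ovaries. Null arrays were mostly below the wild type, but the average over the 3 stages was not called (-0.42 ± 0.19, adjusted p = 0.288). Inha at P0 was 0.739, 0.556 and 0.467 in Foxl2-null ovaries, against 0.745, 1.25 and 1.05 in wild-type ovaries, without overlap (as for 12.5% of all genes) and without a call (-0.77 ± 0.33, adjusted p = 0.546). Inhba differed by 0.03 ± 0.48 at P0. At E16 3 of 4 erythroid markers rose, with sums of 7.93 to 25.0 in Foxl2-null and 1.50 to 25.5 in heterozygous ovaries, against 1.0 to 1.54 in wild-type ovaries. Of 6 Sertoli cell markers, Dhh rose at E16 and Dhh and Cst9 at P0, with sums of 1.62 to 2.30 in Foxl2-null ovaries of E16, against 1.34 to 1.68 in wild-type ovaries, and 2.18 to 3.42 in Foxl2-null ovaries of P0, against 1.56 to 2.13. The fetal Leydig cell marker Hsd3b1 fell at P0, where the sum over 4 markers was 1.32 to 1.84 in Foxl2-null ovaries, against 2.38 to 3.21. The part of these cells in the changes of Inhbb and Smad3 was not tested. Of the 41 other pathway genes only Bmpr2, a type II receptor of bone morphogenetic proteins, was called at a single stage, at E13 (-0.59 ± 0.14, adjusted p = 0.0189), with 9 at an unadjusted p under 0.05 at E13, 3 at E16 and 2 at P0.

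In KitWvWv ovaries, which had lost most germ cell marker signal, Fst and Inha rose, 2 of 10 genes, where 30.6% of all genes were called, 17.3% higher, and the median over all genes was 0.23. Fst was 2.77, 3.13 and 3.34 in KitWvWv ovaries, against 1.08, 0.920 and 0.895 in wild-type ovaries of P0, with every mutant array more than 2-fold above every wild-type array (1.67 ± 0.33, adjusted p = 0.0002185; 1.63 on the second probe set). Those levels overlapped those of E16 wild-type ovaries, at 3.09, 2.76 and 2.15. Inha was 3.28, 1.65 and 1.82, against 0.745, 1.25 and 1.05 in wild-type ovaries (1.10 ± 0.33, adjusted p = 0.0132), a call lost without KitWvWv array 1 (adjusted p = 0.119) or wild-type array 1 (adjusted p = 0.0709). KitWvWv array 3, which kept oocyte markers, had the highest Fst signal and a middle Inha signal. The KitWvWv ovaries were labelled Foxl2+/-, so these changes include any effect of losing 1 Foxl2 allele.

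Smad3 was 8.39, 9.08 and 7.83 in KitWvWv ovaries, against 8.33, 8.45 and 10.7 in wild-type ovaries (-0.11 ± 0.12), and Inhbb 0.720, 1.41 and 1.50, against 1.13, 1.21 and 1.26 (-0.06 ± 0.21). Both overlapped with the wild type. The probe sets of Acvr2a and Smad2 went apart: the second Acvr2a probe set rose by 0.77 (adjusted p = 0.003245) while the brightest gave -0.29, and the second Smad2 probe set fell by 0.88 (adjusted p = 2.031e-05) while the brightest gave 0.01. No direction is given for these genes here. Supporting cell markers of the fetal ovary summed to 41.2 to 50.9 in KitWvWv ovaries, against 28.6 to 32.3 in wild-type ovaries, and 2 of 5 rose. The part of these cells, and of the loss of germ cells, in the changes of Fst and Inha was not tested. Of the 41 other pathway genes 7 rose and 2 fell (30.6% of all genes were called), with a median of 0.29 against 0.23 over all genes, led by Ltbp1 (1.47 ± 0.21), Bambi (1.21 ± 0.18), a decoy receptor, Pmepa1 (1.03 ± 0.23) and Acvrl1 (1.14 ± 0.32), an endothelial type I receptor.

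When Foxl2 was lost as well, Inhbb rose and Smad3 fell again, 2 of 10 genes (1.14% of all genes were called). Inhbb was 2.65, 2.20 and 3.77 in KitWvWv Foxl2 double mutant ovaries, against 0.720, 1.41 and 1.50 in KitWvWv ovaries (1.28 ± 0.21, adjusted p = 0.0008207). Smad3 was 5.15, 5.75 and 5.98, against 8.39, 9.08 and 7.83 (-0.58 ± 0.12, adjusted p = 0.0118), a call lost without double mutant array 1 (adjusted p = 0.0701) or KitWvWv array 2 (0.0639). Neither pair of groups overlapped, as for 11.1% of all genes, and with the spread of these 6 arrays alone neither was called (adjusted p = 0.291 and 0.322). Fst was 3.03, 2.75 and 1.64 in the double mutant, against 2.77, 3.13 and 3.34, and was not called (-0.36). Supporting cell markers, which include the deleted Foxl2, summed to 22.3 to 29.2 in the double mutant, against 41.2 to 50.9 in KitWvWv ovaries. Fetal Leydig cell markers summed to 1.39 to 1.54, against 3.24 to 3.9, and oocyte markers to 0.793 to 0.996, against 1.29 to 22.2. Sertoli cell markers summed to 3.54 to 4.33, against 2.53 to 3.44. The part of these cells here was not tested.

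The Foxl2 effects on 3 backgrounds were compared directly at P0, and both comparisons share the Foxl2-null and wild-type arrays. The Wnt4-null and KitWvWv ovaries were labelled Foxl2+/- and the labels of the wild-type ovaries give no mutation, so background and Foxl2 dose of the controls cannot be told apart here. On Smad3 the effect was -1.17 ± 0.12 with Wnt4 and Kit intact, -0.24 ± 0.12 on the Wnt4-null and -0.58 ± 0.12 on the KitWvWv background. The Wnt4-null effect differed from the first by 0.94 ± 0.17 (adjusted p = 0.005425, or 0.0550 with the spread of these arrays alone), and the KitWvWv effect by 0.59 ± 0.17, which was not called (adjusted p = 0.390). For Inhbb the change on the Wnt4-null background was -1.17 ± 0.30 and was not called (adjusted p = 0.0912) except with the spread of these arrays alone (adjusted p = 0.0283), and for Fst -1.45 ± 0.46 (adjusted p = 0.265). Of the 10 genes 1 was called for the Wnt4-null change (0.379% of all genes) and 0 for the KitWvWv change (0.022%), with 2 at an unadjusted p under 0.05.

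The stages were then compared within each sex. From E13 to E16 0 of 10 genes were called in the ovary (9.02% of all genes; 2 at an unadjusted p under 0.05). By the labels the E13 ovaries were Foxl2+/- and the E16 ovaries carried no mutation, so stage and Foxl2 dose cannot be told apart here. Between E16 and P0, Fst in wild-type ovaries fell (-1.45 ± 0.33, adjusted p = 0.001175) and Smad3 rose (0.87 ± 0.12, adjusted p = 3.641e-06), where 30.9% of all genes were called, 10.2% higher and 20.7% lower, and the median over all genes was -0.27. Smad2 also rose (0.61 ± 0.22, adjusted p = 0.0320), a call lost without E16 array 1 or 3 or without P0 array 2 or 3 (adjusted p = 0.0531 to 0.158). In P0 ovaries all 7 oocyte markers had risen, and the part of oocytes in these changes was not tested.

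In the testis, P0 against E13, 4 of 10 genes rose and 2 fell, while 22.8% of all genes were called, 9.06% higher and 13.8% lower. The P0 testes lacked Wnt4 by the study's methods, and no such loss is given for the E13 testes, so stage and Wnt4 loss cannot be told apart in these changes. The ligand subunit genes all rose, Inhba by 2.37 ± 0.48 (adjusted p = 0.0004136), Inhbb by 0.84 ± 0.21 (adjusted p = 0.00423) and Inha by 2.09 ± 0.33 (adjusted p = 1.641e-05), and Fstl3 rose by 1.51 ± 0.26 (adjusted p = 4.428e-05). Acvr2b fell on all of its 3 probe sets, to 1.54, 0.751 and 1.17 at P0, against 2.30, 2.62 and 2.55 at E13 (-1.16 ± 0.18, adjusted p = 1.064e-05; -2.11 and -1.82 on the others). Smad3 fell by 0.34 ± 0.12, just inside the threshold (adjusted p = 0.0499) and lost without any 1 of the 6 arrays (adjusted p = 0.0533 to 0.165). Fst was not called on its brightest probe set (0.88, adjusted p = 0.0518) but rose by 2.22 on the second (adjusted p = 1.709e-05). Of the 41 other pathway genes, 8 rose and 10 fell (22.8% of all genes were called), led by Lefty1 (-6.76 ± 0.33), Tdgf1 (-4.84 ± 0.37) and Lefty2 (-3.45 ± 0.35), those that stood highest in E13 testes, and by Wfikkn2 (2.13 ± 0.28).

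**Figure D5:**
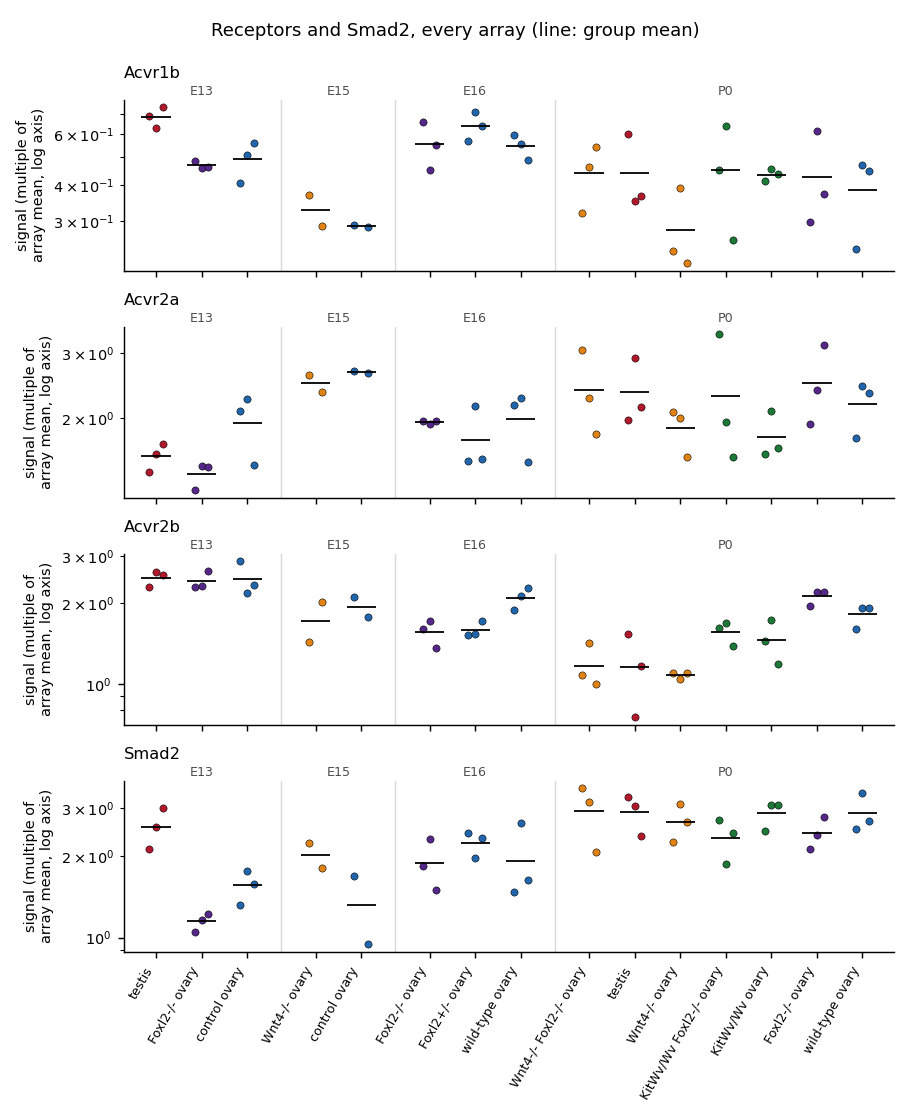
Signal of Acvr1b, Acvr2a, Acvr2b and Smad2 (multiples of the array mean, log axis) on each array of the 15 groups; points are arrays and lines group means. The lowest Acvr2b group means, between 1.08 and 1.17, are those of the 3 P0 groups without Wnt4, the P0 testes among them.

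Put in order of group mean, Inhba was highest in P0 testes (14.0 ± 2.6, SD, n = 3) and double null ovaries (14.0 ± 2.2, n = 3), then in Wnt4-null ovaries of P0 (9.54 ± 0.70, n = 3) and E15 (6.14 ± 1.58, n = 2) and in E13 testes (2.94 ± 1.55, n = 3). The remaining 10 groups lay between 0.385 and 1.12, with neighbours that did not differ beyond their spread. For Fst the order ran the other way: the highest group means were those of KitWvWv ovaries (3.08 ± 0.29, n = 3) and E16 wild-type ovaries (2.67 ± 0.47, n = 3), and the lowest those of double null ovaries (0.115 ± 0.059, n = 3), P0 testes (0.0741 ± 0.0373, n = 3) and E13 testes (0.0346 ± 0.0174, n = 3). The top 8 groups of Fst, at 1.79 or more, overlapped with their neighbours.

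The genes whose group means followed those of a member most closely over the 15 groups were found by Pearson correlation, given as a description. For Fst they were Dcaf12l1 (0.966), Arhgap29 (0.963) and Lrrn1 (0.962). For Inhba they were Nrk (0.956), Pdgfra (0.954) and Efna5 (0.946), for Inha Steap4 (0.964), Col15a1 (0.959) and Tyro3 (0.952), and for Inhbb Tspan15 (0.917), Ptgr1 (0.910) and Dhh (0.905), the desert hedgehog ligand of Sertoli cells. The groups share stages and sexes, so many genes follow the same pattern, and with quantile normalization Laptm4b (0.966) led for Fst, Frmd4a (0.949) and Kdelr2 (0.948) took the place of Pdgfra and Efna5 for Inhba, and Cd47 (0.910) and Anxa5 (0.902) that of Ptgr1 and Dhh for Inhbb.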

How the data were processed

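Gonads were hybridised to Affymetrix MOE430 v.2 arrays, and the authors deposited linear intensities per probe set, obtained with plier and, per the labels, brought to the same global mean; the labels also name GCOS 1.3 without its role, and a genome build is not given in the sources used here. RNA was amplified linearly in 1 round. Of 45071 probe sets, 64 array controls were dropped and 45007 tested. A single gene symbol was annotated for 34927, several for 930 and none for 9150; 34723 were found in the RefSeq table. Intensities were divided by the common mean (1.597e+07) and converted to log2 after adding 1% of it. Array medians were 0.1795 to 0.2949. Detection calls were not used, and the number of arrays limits the precision.

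One model of 15 group means over 43 arrays was fitted with limma 3.58.1 in R 4.3.3 (moderated with a trend; 28 degrees of freedom remained, 36.84 after moderation; two-sided, Benjamini-Hochberg over all probe sets) for 21 comparisons; other steps used Python 3.11.15, numpy 2.4.6, pandas 2.3.3 and matplotlib 3.10.9. The study ranked genes with another program, Focus, not used here. The p-values measure the spread between single mice. Array numbers were checked as pairs after removal of group means. Only Foxl2-null and control ovaries of E13 passed, with correlations of 0.132 to 0.158 between same-numbered arrays and 3 of 3 best with their own number. The numbers were therefore taken to pair those arrays only, but correlations this low do not establish pairing. At E15 2 of 2 were best with their own number, at a correlation of 0.0226.

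The members and lists were chosen with earlier results of these data known. Named are the 10 members, up to 4 other pathway genes per comparison with the smallest adjusted p, markers set beside a result and the 3 genes most like Fst, Inha, Inhba and Inhbb. Gdf1 and Mstn of the pathway list and Insl3 and Pax2 of the marker lists were not measured here. Alternatives were other pseudocounts (0.1% and 5%), quantile normalization, only probe sets above the median signal, eBayes without a trend, only the arrays compared, the array number as a block, and leaving out each array.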

Additional observations from a re-analysis of the deposited data

Results flagged for a closer look

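Differences that themselves differed between stages or backgrounds were found for 4 of the 10 genes. The testis minus ovary difference changed between E13 and P0 by 2.77 ± 0.68 for Inhba (log2, adjusted p = 0.00827, limma) and by 1.87 ± 0.36 for Fstl3 (adjusted p = 0.0008447), both larger at P0. It changed by 2.10 ± 0.46 for Fst (adjusted p = 0.003045), less negative at P0, and by -1.58 ± 0.17 for Smad3 (adjusted p = 1.282e-07), more negative at P0. The P0 testes came from Wnt4-null mice by the study's methods. By the labels the E13 ovaries were Foxl2+/-, and the labels of the P0 ovaries give no mutation. Stage, Wnt4 loss and Foxl2 dose of the ovaries thus cannot be told apart in these 4 changes. The Foxl2-null effect on Smad3 was more negative at P0 than at E13 by 0.93 on the log2 scale (change -0.93 ± 0.17, adjusted p = 0.008579), and on a Wnt4-null background it was weaker at P0 by 0.94 ± 0.17 (adjusted p = 0.005425), where Smad3 was already at 2.61 to 3.35 in Wnt4-null ovaries. The E13 controls and the Wnt4-null ovaries were labelled Foxl2+/- and the labels of the P0 controls give no mutation, so the Foxl2 dose of the controls cannot be told apart from stage or background here. These last changes were not called with the spread of the arrays compared alone (adjusted p = 0.322 and 0.0550).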

How the results depend on the processing

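Over the comparisons, 47 member differences were called, and 32 of them kept direction and call under every alternative. Of 667 alternative values for the 47, 612 kept the call, 55 lost it and 0 changed sign. The setting that mattered most took the spread from the arrays compared alone, which kept 35 calls and lost 12. With it the number of members called was 3 for testis against ovary at E13, 1 for Foxl2-null against wild-type ovaries at E16, 1 against heterozygous ovaries, 1 for Wnt4 loss at E15, 0 for Foxl2 loss on the KitWvWv background, 5 for P0 against E16 ovaries and 0 for the change of the Foxl2 effect from E13 to P0. Without a trend, 1 was called in both E16 comparisons of Foxl2-null ovaries. For E16 against E13 ovaries, 1 was called with a pseudocount of 5%, 2 with quantile normalization and 1 above the median signal, and quantile normalization gave 1 for Foxl2 loss at E13. With the array number as a block the E13 Foxl2 comparison, the only one whose numbers were taken to pair arrays, had no member call changed. Elsewhere 1 was called for Foxl2 loss at E16 (Smad3 lost, adjusted p = 0.0575), and in testes P0 against E13 Smad3 was lost (0.0567) and Fst gained (0.0493).

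Leaving out 1 array in turn, the members called were 4 to 5 for testis against ovary at E13 and 6 to 7 at P0; 0 to 1, 1 to 2 and 1 to 1 for Foxl2 loss at E13, E16 and P0 and 2 to 2 on average; 0 to 0 for heterozygous against wild-type and 1 to 2 for null against heterozygous ovaries; 0 to 2 and 5 to 6 for Wnt4 loss at E15 and P0; 1 to 1 for double null against Wnt4-null ovaries and 0 to 0 against testes; 1 to 2 for KitWvWv and 1 to 2 for Foxl2 loss on it; 0 to 1 and 2 to 4 for E16 and P0 ovaries; 5 to 7 for P0 testes; and 4 to 5 for the change of the testis-ovary difference. Where E15 kept 1 array of a genotype, that array was assumed to vary like the other groups.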
